A study of Mus musculus with 2 samples.

Results

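Collagens are the structural proteins of the extracellular matrix, built from 3 chains wound into a triple helix and secreted by mesenchymal, epithelial and endothelial cells. The collagen genes were taken as the probe sets with a single symbol in the platform annotation that has the form of a collagen chain name. This gave 82 probe sets for 42 genes, of 45101 probe sets and 18193 genes on the array. Total RNA of whole mouse lungs at embryonic day 18, shortly before birth, was hybridised to 2 Affymetrix arrays. Of these 1 received wildtype RNA, and 1 received RNA from homozygotes of Nmyc9a, a hypomorphic allele of the transcription factor gene Mycn. Both RNAs came from pooled lungs, and the labels state neither the number of lungs nor the strain or sex. Each group is a single array, so no difference below was tested or carries a p-value, and a pool hides the spread between animals. In bulk RNA, fewer cells of a type and less RNA per cell cannot be told apart.

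In the lung, fibrillar collagens made by fibroblasts give the interstitium its tensile strength, and type IV collagens form the sheet-like networks of basement membranes under epithelium and endothelium. Around birth, the basement membranes of the type 1 alveolar cells and of the capillaries lie close together and form the barrier for gas exchange. Other collagens coat fibrils, span the cell membrane, or build microfilaments and anchoring structures. Cartilage collagens in lung RNA come mainly from the rings of the trachea and bronchi, as far as these were dissected with the lung.

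Values below are scaled signal intensities, with the wildtype array first and the array labelled Nmyc9a second. The floor, the level under which a probe set was not measured, was a signal of 49.3, and a gene took its brightest probe set and counted as measured where the mean of both arrays reached the floor. Of the 42 collagen genes, 31 were measured by this rule and 11 were not. Median deposited signals were 66 (wildtype) and 77.7 (Nmyc9a), and type 1 alveolar markers (6 of 6 measured) and endothelial markers (7 of 7 measured) were detected in both RNAs. Mycn itself read 66.3 and 84.8 on its brightest probe set and 51.1 and 85.4 on a second one, close to the floor. It was not lower, and since the position of these probes relative to the changed sequence of the allele is unknown here, the genotype label could not be checked from it.

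By their median in the main setting, collagen transcripts as a group were nearly equal on the arrays. Of the 31 measured genes, 2 were higher by 1.5-fold or more on the array labelled Nmyc9a, and none was lower by as much. Among all 12600 measured genes, 6.33% were that much higher and 9.70% that much lower, so the higher count lay at the background share. None of the collagens reached 2-fold, a size that 1.29% of all measured genes passed upwards and 1.38% downwards. With the values as deposited Col7a1 passed it, at a log2 ratio of 1.03. The median log2 ratio of the collagens was 0.01, with 16 genes above 0 and 15 below, beside a median of -0.09 for all measured genes. Among the 16, Col20a1 and Col22a1 counted as measured only through the array labelled Nmyc9a, so they could only stand above 0. Over the alternative settings the collagen median lay between -0.04 and 0.16, so its sign was not stable. The SD of the log2 ratios was 0.36 among the collagens and 0.43 among all measured genes.

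**Figure D1:**
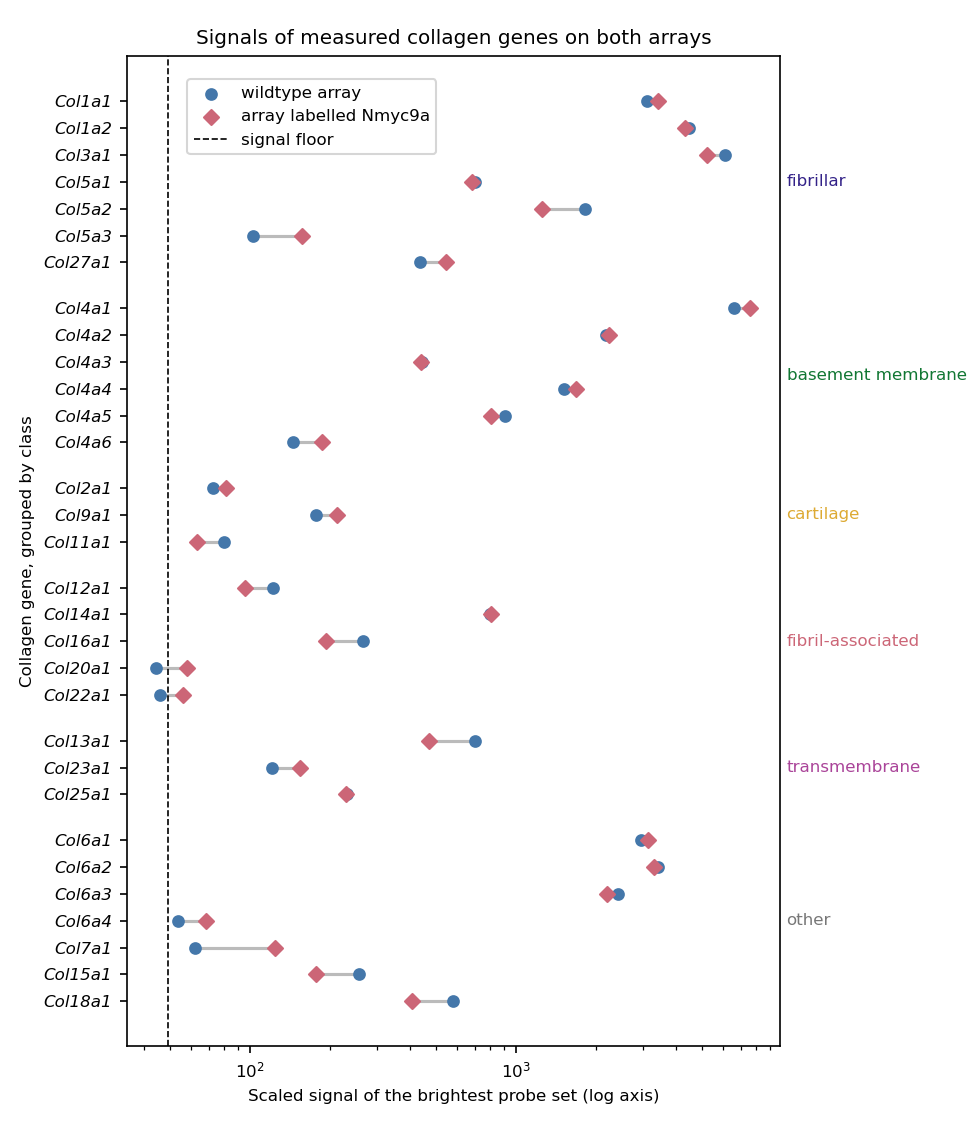
Scaled signals of the brightest probe set of each of the 31 measured collagen genes on a log axis, grouped by class, with a circle for the wildtype array, a diamond for the array labelled Nmyc9a and a dashed line at the floor of 49.3. The paired points lie close together for most genes, and the widest gap is that of Col7a1, from 61.9 to 124.

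The genes past 1.5-fold were both dim. Col7a1, the chain of the anchoring fibrils that tie stratified epithelium to the tissue beneath, read 61.9 and 124, a log2 ratio of 0.999 (1.999-fold). Col5a3, the least abundant chain of type V collagen, read 103 and 157, a log2 ratio of 0.61 (1.53-fold). Each rests on a single measured probe set. The second probe set of Col5a3 read 7.80 and 3.52, below the floor on both arrays.

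The size of the differences has to be read against the signal level, a split at a mean signal of 200 that was chosen after the data were seen. Under that signal lay 11 collagen genes, of which 2 were 1.5-fold higher and none lower, against 9.22% and 8.77% of 6703 genes. At or above it lay 20 collagen genes, and none passed 1.5-fold either way, against 3.04% higher and 10.8% lower of 5897 genes. The median of these 20 was -0.05 and that of all genes at such signals -0.16.

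The error of a single probe set can be judged from genes with several. Over 5671 genes with at least 2 measured probe sets the pooled SD of the log2 ratio within a gene was 0.40 (1.32-fold), and over the 19 such collagen genes it was 0.29. This SD covers probe behaviour only. Of the 19 collagen genes, 12 had all measured probe sets on the same side of 0 and 7 had them on both sides. Among the 54 measured collagen probe sets, 3 were higher and 5 lower by 1.5-fold or more, to be read against 14.4% and 8.28% of all measured probe sets. The probe sets past 1.5-fold lower belonged to Col5a2, Col12a1, Col4a3, Col6a4 and Col18a1, and none was the brightest of its gene.

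**Figure D2:**
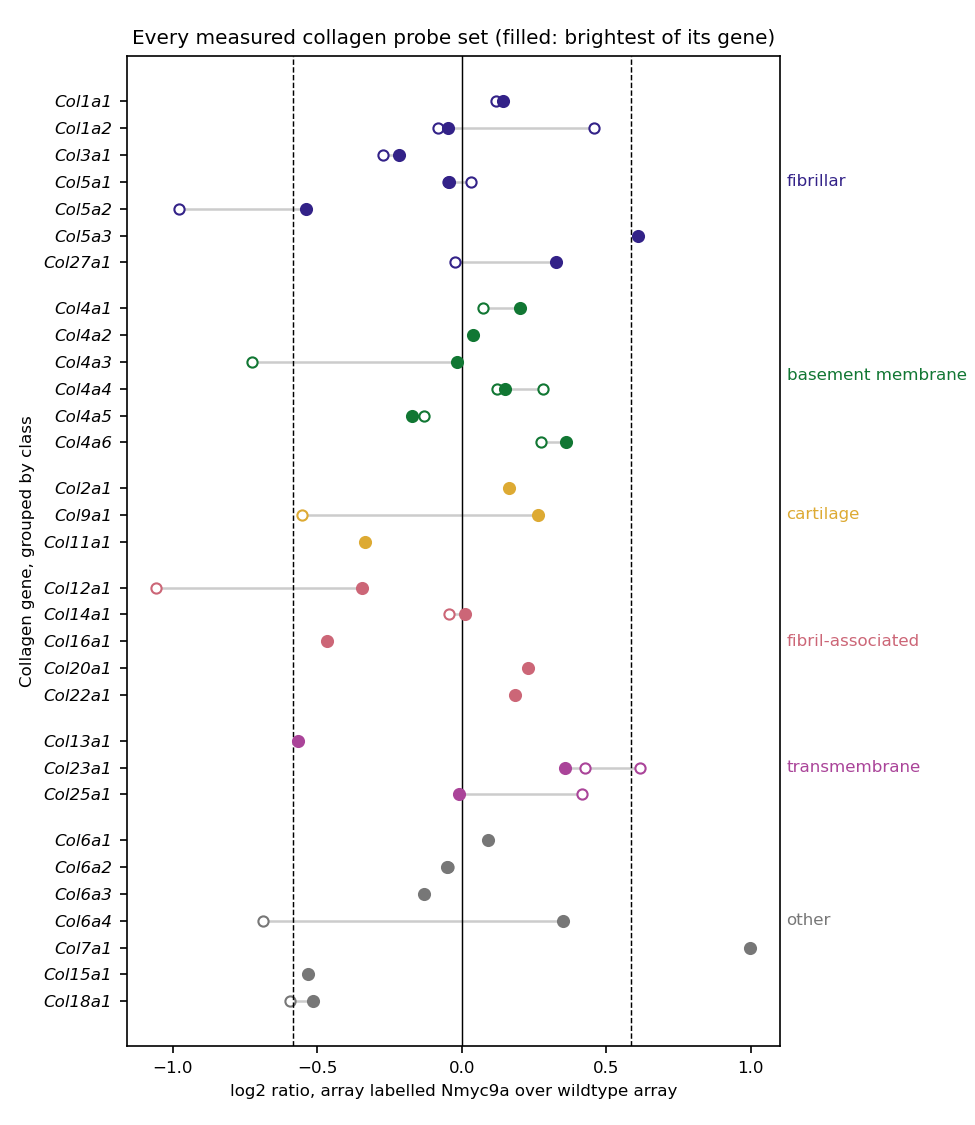
Log2 ratio, array labelled Nmyc9a over wildtype array, of each of the 54 measured collagen probe sets by gene and class. Filled points are the brightest probe set of a gene, open points its other measured probe sets, the grey line their range, and the dashed lines mark 1.5-fold. Col12a1, Col4a3, Col9a1 and Col6a4 have the widest disagreement between probe sets, and only Col5a3 and Col7a1 have a filled point past a dashed line.

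To let the regulatory sequence be set beside these values, the stretch before the start is shown for both genes past 1.5-fold (Col5a3 and Col7a1), for a lower gene with 2 probe sets on the same side (Col18a1), for a major fibrillar chain with nearly equal signals (Col1a2) and for a divergent gene pair whose ratios differed (Col4a5 and Col4a6). Sequences are RefSeq promoter windows of GRCm38.p6, cut to the part before the gene's outermost annotated start, 5′ to 3′ on the gene's strand. Capitals mark CCAAT boxes (CCAAT or ATTGG) and GC boxes (GGGCGG or CCGCCC), searched on both strands.
Col5a3: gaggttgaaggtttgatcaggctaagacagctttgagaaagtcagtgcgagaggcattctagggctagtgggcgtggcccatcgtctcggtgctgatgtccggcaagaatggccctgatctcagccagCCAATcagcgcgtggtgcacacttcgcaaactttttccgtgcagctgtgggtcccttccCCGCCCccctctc
Col7a1: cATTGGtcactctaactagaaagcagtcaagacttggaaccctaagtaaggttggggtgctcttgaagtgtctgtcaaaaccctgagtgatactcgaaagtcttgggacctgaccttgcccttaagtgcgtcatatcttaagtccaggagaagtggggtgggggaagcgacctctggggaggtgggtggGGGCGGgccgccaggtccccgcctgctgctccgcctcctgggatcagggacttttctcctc
Col18a1: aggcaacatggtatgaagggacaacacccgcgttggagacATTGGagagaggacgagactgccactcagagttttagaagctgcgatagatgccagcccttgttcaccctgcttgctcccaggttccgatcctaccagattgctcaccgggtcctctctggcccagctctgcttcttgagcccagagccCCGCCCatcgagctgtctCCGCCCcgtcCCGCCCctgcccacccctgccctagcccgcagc
Col1a2: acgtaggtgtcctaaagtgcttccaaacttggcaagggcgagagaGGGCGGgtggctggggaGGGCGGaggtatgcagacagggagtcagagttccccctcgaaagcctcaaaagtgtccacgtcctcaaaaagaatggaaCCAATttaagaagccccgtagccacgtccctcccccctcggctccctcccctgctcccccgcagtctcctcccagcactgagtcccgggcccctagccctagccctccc
Col4a5: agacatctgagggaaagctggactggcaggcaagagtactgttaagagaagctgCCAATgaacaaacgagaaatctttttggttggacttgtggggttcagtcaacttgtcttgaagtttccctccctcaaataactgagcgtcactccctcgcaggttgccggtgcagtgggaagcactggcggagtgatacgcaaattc
Col4a6: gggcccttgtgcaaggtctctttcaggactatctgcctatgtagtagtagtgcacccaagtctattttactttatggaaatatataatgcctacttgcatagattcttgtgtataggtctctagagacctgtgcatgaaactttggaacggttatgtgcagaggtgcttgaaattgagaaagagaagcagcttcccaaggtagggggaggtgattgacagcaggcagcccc
The Myc E-box CACGTG, a palindrome bound by Myc and Max, was in none of the 36 windows of 300 bases that matched 33 of the 42 collagen genes. It was in 7.15% of all 32851 promoter windows of that length. A CCAAT box was in 36.1% of the collagen windows and 37.4% of all windows, and a GC box in 61.1% and 35.7%. These counts describe letters in a window and say nothing of binding, and some genes have more than 1 window.

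The coordinates of the windows shown are chr9:20815118-20815317 (minus strand) for Col5a3, chr9:108953336-108953585 (plus) for Col7a1, chr10:77166531-77166780 (minus) for Col18a1 and chr6:4505368-4505617 (plus) for Col1a2. Those of the pair are chrX:141475169-141475369 (plus) for Col4a5 and chrX:141474096-141474326 (minus) for Col4a6. No protein-coding gene of the annotation overlaps any of them. The stretch of Col18a1 holds 3 GC boxes and 1 CCAAT box, that of Col1a2 holds 2 and 1, and those of Col5a3 and Col7a1 hold 1 of each. Col4a5 has 1 CCAAT box and no GC box, and Col4a6 has neither.

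Fibrillar collagens, the chains that assemble into the banded fibres of connective tissue, showed no common direction. Of 8 genes on the array 7 were measured, with Col5a3 higher and none lower past 1.5-fold, and their median log2 ratio was -0.04, which was 0.13 after quantile normalization and 0.17 after loess. Col1a1, a chain of type I collagen, read 3102 and 3422 (log2 ratio 0.14), and its second probe set read 762 and 826 (0.12). Col1a2, the partner chain, read 4481 and 4332 (-0.05). A second Col1a2 probe set read 2475 and 2339 (-0.08), while a dimmer one read 105 and 144 (0.46). In the main setting the brightest probe sets of both type I chains therefore lay close to equality. After quantile normalization and loess Col1a1 stood at 0.35 and 0.36, and Col1a2 at 0.11 and 0.17.

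Col3a1, the homotrimeric collagen of distensible tissues such as vessel wall and lung, read 6096 and 5241 (log2 ratio -0.22) and 737 and 610 (-0.27) on its probe sets. Both lay on the same side, within the probe set SD. Col27a1, a fibrillar collagen known from cartilage, read 435 and 546 (0.33) on its brightest probe set and 131 and 129 (-0.02) on the other.

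The chains of type V collagen, which nucleates fibrils and limits their diameter, diverged. Col5a1 read 704 and 683 (log2 ratio -0.04), with its other probe sets at -0.05 and 0.03. Col5a2 read 1822 and 1253 (-0.54) and, on a second probe set, 984 and 499 (-0.98). Thus Col5a2 was lower on both probe sets, and by the median of its probe sets it passed 1.5-fold lower, at -0.76. Over all settings its ratio lay between -0.76 and -0.30. With Col5a3 at 0.61, the type V chains spanned 1.15 on the log2 scale. The 6 chains of type IV spanned 0.53, the 2 of type I 0.19, and Col6a1, Col6a2 and Col6a3 0.22. The upper end of the type V span rests on the single measured probe set of Col5a3, which was dim.

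Col5a2 stands next to Col3a1 on chromosome 1, with no other protein-coding gene starting between them. They stood at -0.54 and -0.22 and differed by 0.32. The value of Col3a1 was -0.05 after quantile normalization and lay between -0.27 and -0.001 over all settings. Col6a1 and Col6a2, also neighbours, were at 0.09 and -0.05.

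Basement membrane collagens were measured for all 6 type IV chains, and none passed 1.5-fold. Their median log2 ratio was 0.09, between 0.09 and 0.30 over all settings. In the main setting 5 of 6 were within 1.2-fold of equality, beside 58.1% of the measured collagens and 48% of all measured genes. That count depended on the scaling. Quantile normalization put Col4a4 at 0.39 and loess put it at 0.38, past 1.2-fold, while Col4a3 and Col4a5 stayed within it. Col4a1 and Col4a2 form the trimer found in basement membranes throughout the body. Col4a1 read 6620 and 7619 (log2 ratio 0.20), with a second probe set at 4479 and 4710 (0.07), and Col4a2 read 2184 and 2242 (0.04). In the main setting both chains of this trimer lay within 1.2-fold of equality. Over all settings Col4a1 lay between 0.14 and 0.42 and Col4a2 between 0.04 and 0.27.

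Col4a3, Col4a4 and Col4a5 form the trimer of alveolar and glomerular basement membranes. Col4a3 read 444 and 440 (log2 ratio -0.01) on its brightest probe set but 327 and 198 (-0.72) on the other. Col4a4 read 1519 and 1684 (0.15), and its other probe sets stood at 0.12 and 0.28. Col4a5 read 909 and 807 (-0.17), with the second probe set at -0.13. The chains of this trimer thus lay between -0.17 and 0.15 by their brightest probe sets, while their other probe sets reached down to -0.72 (Col4a3) and up to 0.28 (Col4a4).

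Col4a6, which pairs with Col4a5 in basement membranes of smooth muscle and some epithelia, read 146 and 187 (log2 ratio 0.36), with its second probe set at 72.2 and 87.3 (0.27). The type IV genes lie in the genome as neighbouring pairs, each transcribed from a shared stretch in opposite directions. Col4a1 and Col4a2 differed by 0.16 on the log2 scale, Col4a3 and Col4a4 by 0.16, and Col4a5 and Col4a6 by 0.53. The probe sets of Col4a5 were both below 0 and those of Col4a6 both above. Quantile normalization put Col4a5 at 0.03 and Col4a6 at 0.29, and loess put them at 0.04 and 0.34, so the gap narrowed and both genes then stood above 0. Of the cell types that carry these networks, endothelial markers had a median of -0.10 (7 of 7 measured, 3 above 0), and type 1 alveolar markers had -0.36 (6 of 6 measured, 1 above 0). Their part in the type IV values was not tested.

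Of the 7 cartilage collagen genes only Col2a1, Col9a1 and Col11a1 were measured, all at low signals. Col2a1, the main fibril chain of cartilage, read 72.7 and 81.4 (log2 ratio 0.16). Col11a1, a minor chain of the cartilage fibril that other mesenchyme also makes, read 79.7 and 63.2 (-0.33). Col9a1, which decorates the cartilage fibril, read 177 and 212 (0.26) on one probe set and 72.4 and 48.5 (-0.55 or lower) on the other. The class median of 0.16 has no stable sign: it was -0.15 with the median of probe sets and -0.03 after quantile normalization. Col10a1, the marker of hypertrophic chondrocytes, read 5.90 and 8.70, below the floor. Cartilage markers other than collagens were 5 of 8 measured, with a median of -0.34, and the signals of all 8 summed to 598 and 512. Among them Acan, the large cartilage proteoglycan, stood at 0.48 and Sox9, which airway epithelium also expresses, at -0.11, while Hapln1 stood at -0.44 and Matn3 at -0.57. Matn1, a marker of mature cartilage, read 28.1 and 20.4, below the floor.

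Fibril-associated collagens, which sit on the surface of type I fibrils and link them to other matrix, were measured for 5 of 6 genes with none past 1.5-fold. Col14a1 read 797 and 804 (log2 ratio 0.01), and a second measured probe set stood at -0.04. Col12a1, a related chain, read 122 and 95.9 (-0.35) on its brightest probe set and 124 and 59.6 (-1.06) on the other. Both Col12a1 probe sets were lower, and their median of -0.70 passed 1.5-fold. Col16a1 read 267 and 193 (-0.46) on its only probe set. Col20a1 (44.5 and 57.8) and Col22a1 (45.7 and 56.0), the latter a collagen of muscle-tendon junctions, were below the floor on the wildtype array, so their log2 ratios are bounds, 0.23 or higher and 0.18 or higher. They counted as measured only through the array labelled Nmyc9a. The class median was 0.01, and it was -0.27 with the floor at the 60th percentile, which left 3 genes.

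Transmembrane collagens span the cell surface and can be shed. Col13a1, found at cell adhesion sites and at neuromuscular synapses, read 701 and 473 (log2 ratio -0.57, 1.48-fold lower), the lowest value of any measured collagen by brightest probe set. It has 1 probe set, and over all settings its ratio lay between -0.57 and -0.39. Col23a1 lay on the other side, with 3 probe sets at 121 and 155 (0.36), 104 and 140 (0.43) and 78.7 and 121 (0.62), a mean of 0.47 ± 0.13 (SD over probe sets of 1 array pair, not over animals). Its probe sets shared a direction but are not independent samples. Col25a1, studied in motor axon innervation of muscle, read 232 and 231 (-0.01), with a second probe set at 66.1 and 88.2 (0.42). The median of the 3 measured genes was -0.01, and it was 0.20 with the median of probe sets.

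Of the remaining collagens, those of type VI form beaded microfilaments around cells and fibres. In the main setting their main chains were nearly equal. Col6a1 read 2963 and 3154 (log2 ratio 0.09), Col6a2 3415 and 3299 (-0.05) and Col6a3 2417 and 2209 (-0.13). Both Col6a2 probe sets gave -0.05. After quantile normalization and loess Col6a1 stood at 0.27 and 0.31, Col6a2 at 0.13 and 0.17, and Col6a3 at 0.09 and 0.10. Col6a4 was dim and inconsistent, with 53.7 and 68.5 (0.35) on one probe set and 79.4 and 38.1 (-0.69 or lower) on the other.

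The multiplexins Col15a1 and Col18a1, collagens of the basement membrane zone that carry endostatin-type domains, lay together on the lower side. Col15a1 read 257 and 178 (log2 ratio -0.53) on its single probe set. Col18a1 read 582 and 407 (-0.52) and, on a second probe set, 512 and 339 (-0.60). Both genes stayed below 0 in all 9 alternative settings, with ranges of -0.56 to -0.50 for Col15a1 and -0.60 to -0.36 for Col18a1. The type IV chains of the basement membrane itself stood between -0.17 and 0.36. Whether the multiplexins and the type IV chains differ could not be tested with 1 array per group.

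Col5a2, Col13a1, Col15a1, Col16a1 and Col18a1 were the only measured collagens at a log2 ratio of -0.40 or lower by the brightest probe set. They were 5 of 31 (16.1%), against 21.0% of all measured genes. All 5 had a mean signal of 200 or more. There they were 5 of 20 collagens (25%), against 24.8% of all genes, a share at the background. Markers of other cell types also lay lower. Smooth muscle markers had a median of -0.70 (4 of 6 measured, all below 0), and the signals of all 6 summed to 4161 and 2527. Mesothelium markers had a median of -0.83 (5 of 6 measured, all below 0), and the signals of all 6 summed to 2248 and 1335. Fibroblast markers had a median of -0.27 (8 of 8 measured, 7 below 0, summed signals 7715 and 6775). Among these 7, other probe sets of Pdgfra, Tcf21 and Fbln1 reached 0.46, 0.37 and 0.50. Of all 12600 measured genes 7400 were below 0, and the median of all genes was -0.16 at a mean signal of 200 or more. The part of these cell types in the lower collagen values was not tested. Of the skeletal muscle markers 3 of 7 were measured, and the signals of all 7 summed to 345 and 793. Acta1 (41.1 and 219) counted as measured only through the array labelled Nmyc9a, which fixes its direction. Mylpf read 53.6 and 147, next to the floor on the wildtype array, and Ckm read 170 and 243. Bone and tendon markers had low signals. Scx read 79.7 and 83.9, and Ibsp, Dmp1 and Tnmd were not measured. Sp7 (36.0 and 98.4) counted as measured only through the array labelled Nmyc9a, which fixes its direction. Liver markers were 4 of 5 measured, and the signals of all 5 summed to 273 and 1047. Of these Apoa1 (32.7 and 77.8) and Ttr (35.1 and 137) counted as measured only through the array labelled Nmyc9a, which fixes their direction.

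Unmeasured collagen genes were Col8a1, Col8a2, Col9a2, Col9a3, Col10a1, Col11a2, Col17a1, Col19a1, Col24a1, Col26a1 and Col6a5. Their 18 probe sets read between 0.782 and 50.6, and only a Col8a1 value (24.3 and 50.6) reached the floor, on the array labelled Nmyc9a. Col17a1, the hemidesmosome collagen of basal keratinocytes, read 32.2 and 39.3. Whether these transcripts differed was not detectable at these signals. Col6a6 and Col28a1 were not analysed here.

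Enzymes and chaperones that make, modify and crosslink collagen lay mostly on the lower side. Of 30 listed genes 26 were on the array and 22 were measured. None passed 1.5-fold in either direction, beside 6.33% higher and 9.70% lower of all measured genes. Below 0 stood 19 of 22, beside 7400 of all 12600 measured genes. Among the 19, Pcolce2 stood at -0.0005, and other probe sets of Serpinh1 and Colgalt1 reached 0.12 and 0.33. The median log2 ratio of the list was -0.26, against -0.09 for all measured genes and 0.01 for the collagens. The median stayed below 0 in every setting, from -0.28 to -0.13. At a mean signal of 200 or more, where all genes had a median of -0.16 with 4060 of 5897 below 0, the list had 16 measured members with a median of -0.30 and 14 below 0.

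The lowest member was Lox, lysyl oxidase, which starts the crosslinking of collagen and elastin, at 2122 and 1433 (log2 ratio -0.57, 1.48-fold lower), with its second probe set at -0.49. P4ha2, a catalytic subunit of prolyl 4-hydroxylase, read 140 and 94.6 (-0.56), and P3h4, of the prolyl 3-hydroxylase family, read 298 and 206 (-0.53). The highest were Bmp1, the proteinase that removes the C-propeptide of fibrillar procollagens, at 233 and 288 (0.31), Loxl3 at 162 and 181 (0.16) and Mia3, which loads procollagen into transport carriers, at 377 and 411 (0.12). The probe sets of Mia3 ranged from -0.31 to 0.34. The sign of Mia3 was therefore not settled.

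**Figure D3:**
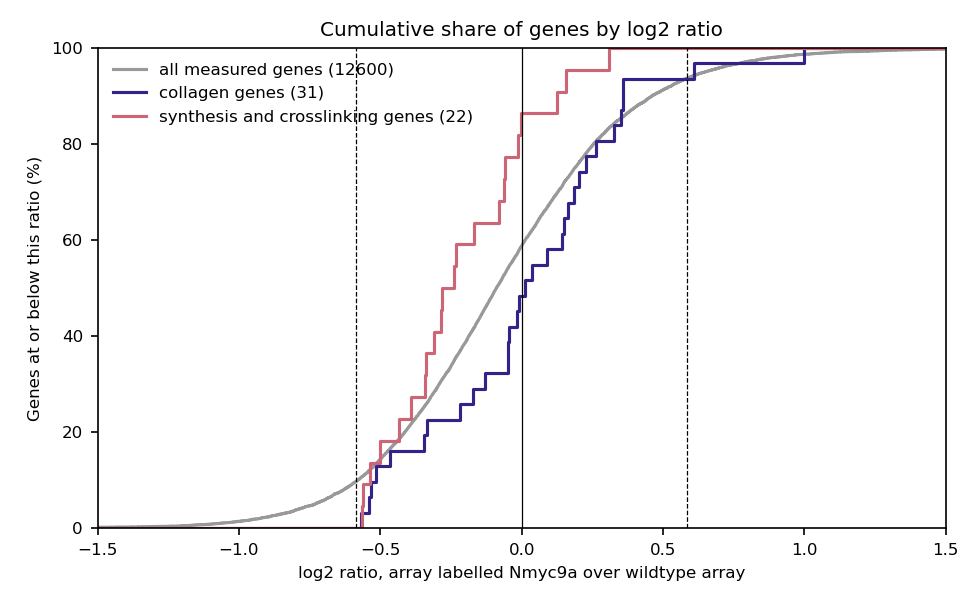
Cumulative share of genes, in percent, at or below each log2 ratio (array labelled Nmyc9a over wildtype array) for all 12600 measured genes, the 31 measured collagen genes and the 22 measured synthesis and crosslinking genes; dashed lines mark 1.5-fold. The collagen curve crosses 50% at 0.01, to the right of all genes (-0.09), and the synthesis curve at -0.26, to the left.

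Collagen receptors carry the signal of the matrix into cells. Of 10 listed genes 9 were on the array and 7 measured, with 1 at least 1.5-fold higher, 1 lower and a median log2 ratio of -0.36. Among all measured genes 6.33% were that much higher and 9.70% that much lower. Their median was -0.09, and -0.16 at a mean signal of 200 or more. A count of 1 among 7 is too small to be set apart from these shares. Itga2, an integrin chain that binds type I collagen, read 257 and 160 (-0.69, 1.61-fold lower), Itgb1, its beta partner, read 2184 and 1571 (-0.48), and Ddr2, a receptor tyrosine kinase for fibrillar collagen, read 384 and 295 (-0.38). The second measured probe set of Ddr2 stood at 0.10, on the other side of 0. Itga10, an integrin chain of chondrocytes, read 50.3 and 81.7 (0.70) next to the floor, Mrc2, an endocytic collagen receptor, read 396 and 422 (0.09), and Itga1 read 504 and 399 (-0.34). Quantile normalization and loess left 1 receptor lower and none higher past 1.5-fold. With the median of probe sets the list's median was -0.14. Probe sets of Ddr1, a related receptor kinase, ranged from -1.34 to 0.19.

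**Figure D4:**
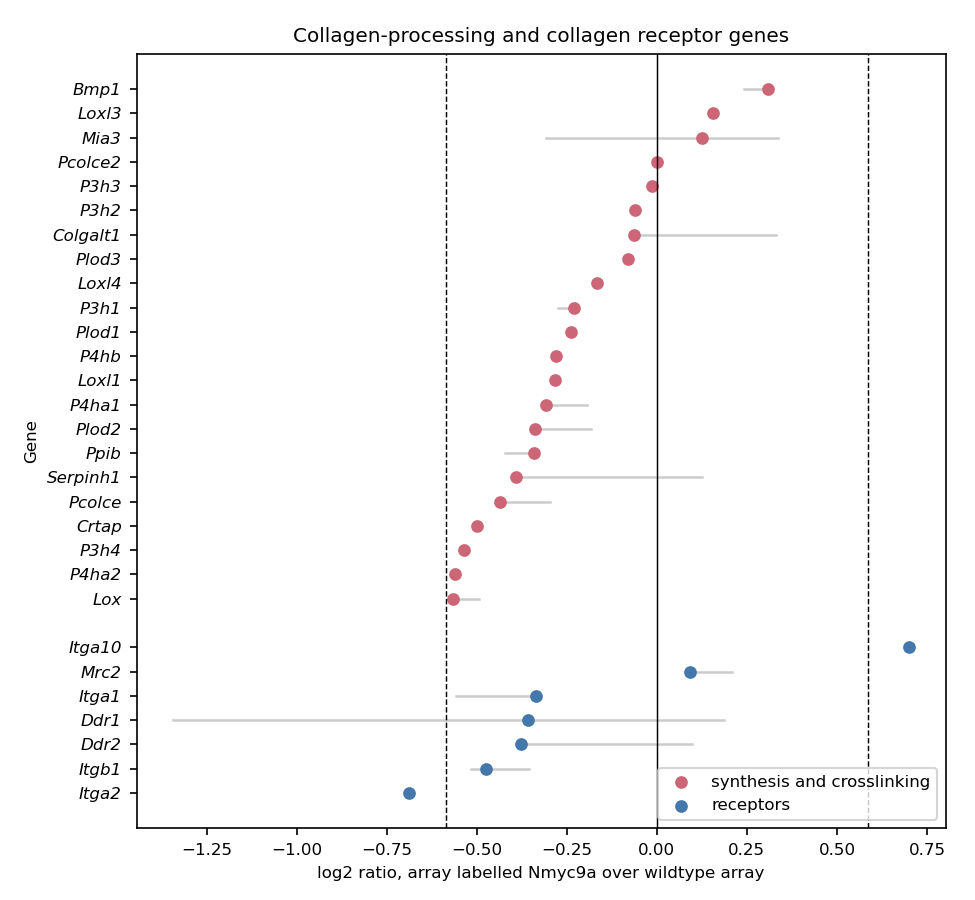
Log2 ratios, array labelled Nmyc9a over wildtype array, of the 22 measured synthesis and crosslinking genes and the 7 measured receptor genes, sorted within each list. Points are the brightest probe set, grey lines the range over all measured probe sets of the gene, and dashed lines mark 1.5-fold, which only Itga2 (-0.69) and Itga10 (0.70) pass.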

How the data were processed

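RNA was extracted with Trizol and an RNeasy kit and labelled with biotin, per the labels' protocols. The deposited table holds, for each probe set, an intensity on a linear scale. Which software produced and scaled these intensities is not stated by the labels. The 64 control probe sets were set aside, and a factor of 0.977 applied to the Nmyc9a array brought the median log2 ratio of probe sets above the floor to 0. The floor was the 40th percentile of scaled signals, 49.3. Lower values were set to the floor before log2 ratios were formed, which makes those ratios bounds. Symbols came from the platform annotation, brought up to date by Entrez number from RefSeq's gene table for GRCm38.p6 (34741 of 34945 probe sets with 1 symbol). A gene took its brightest probe set, and 12600 of 18193 genes were measured.

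Genes were counted at 1.5-fold without tests, since each group holds 1 array. All measured collagens are named, with the 3 highest and 3 lowest members of the synthesis and receptor lists; markers are given as examples and sums. The collagen members, classes and lists were chosen with earlier results of these data known. The steps were tested on simulated data. These had a constant array factor and no shift with signal level, so they do not test whether a single factor suits these arrays. Protein sequences were not analysed here. Alternatives were the values as deposited, quantile normalization, loess with a span of 0.3, floors at the 20th and 60th percentile or none, a pseudocount of 16, the median of probe sets, probe sets without the x, s and a suffixes, and a 2-fold rule. Python 3.11.15, pandas 2.3.3, numpy 2.4.6 and statsmodels 0.14.6 were used.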

Additional observations from a re-analysis of the deposited data

How the results depend on the processing

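No paired analysis was possible because each group holds 1 array, and leaving out an array leaves no comparison. No collagen passed 1.5-fold lower, except 2 (Col5a2 and Col12a1) with the median of probe sets and 1 (Col18a1) without the x, s and a probe sets. These settings had 31 and 28 measured collagens, and 7.83% and 9.11% of all genes were that much lower. The 2 collagens that were higher became 1 after quantile normalization, after loess and with a pseudocount of 16 (Col7a1 each time). Under the floor at the 60th percentile 1 was left (Col5a3). Of all genes 5.10%, 5.50%, 5.29% and 3.79% were that much higher in these settings. The higher collagens became 3 of 37 under the 20th percentile floor (Col8a1 added), beside 10.6% of all genes. With no floor they became 4 of 42 (Col8a1 and Col9a2 added), beside 13.5% of all genes. Under a 2-fold rule they became 0. A synthesis gene passed 1.5-fold lower (1 gene against none) after quantile normalization, after loess, under the 20th percentile floor and with no floor. Of all genes 10.9%, 9.76%, 11.6% and 13.6% were that much lower there. Lower receptors numbered 2 of 9 measured under the 20th percentile floor or with no floor. Higher receptors numbered 0 after quantile normalization, after loess, under the 60th percentile floor and with a pseudocount. The cartilage median became -0.44 without the x, s and a probe sets, where 2 genes were left. The cause of these changes was not tested. Other medians moved by less than the spread of a single probe set, but those of all collagens and of every class except basement membrane changed sign under at least 1 setting. No collagen past 1.5-fold changed sign in any setting. The dimmest genes are limited by the floor of 49.3.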
